A study of Mus musculus with 12 samples.

Results

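Genes that cytokine receptors switch on through the transcription factor STAT5, or that are counted among its outputs in lymphocytes, are described here in mouse T cell leukemia and healthy thymus. The 10 members are Cish, Socs1, Socs2, Socs3, Pim1, Pim2, Pim3, Osm, Gfi1 and Lta. They were taken by symbol from a given list, and all 10 were found among 51734 symbols in the files. The study asked how leukemias differ from healthy thymus when they arise in mice with an inducible alpha chain of the interleukin-7 receptor (Il7r). Per the labels, 9 libraries came from the thymus of mice carrying IL-7R{alpha} under tetracycline-inducible control, whose titles add that it was induced with Dox, and the 3 control libraries came from healthy thymus. Both groups carry the strain label F5. The labels name neither the ages of the mice, the promoter of the inducible gene nor the cells it is active in. They also leave unsaid whether the libraries are different animals. The p-values therefore speak only of the spread among these libraries, part of which may be technical.

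Interleukin-7 binds a receptor made of Il7r and the common gamma chain, and the kinases JAK1 and JAK3 on the receptor then phosphorylate STAT5. STAT5 binds DNA sites of the form TTCNNNGAA. Among its best known outputs are the feedback inhibitors CISH and SOCS, which dampen the receptor and its kinases, and the PIM serine/threonine kinases, which favour survival and growth of lymphoid cells. Developing T cells lower and raise Il7r in a set order, and an active receptor is a known driver of T cell leukemia.

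The libraries differed in composition in a way that partly followed the groups. Totals were 8132930 to 12019665 rounded counts in the controls and 11617559 to 34769677 in the tumors. The share of counts on mitochondrially encoded genes was 31.6% to 69.3% for tumors 1 to 6, against 0.0949% to 11.1% in the controls and tumors 7 to 9. Background was read from the olfactory and vomeronasal receptor genes, whose known place of expression is the nose. Over these 1901 genes the median counts per kilobase, set per library total without TMM scaling and in units of CPM, was 1.53 to 2.04 for the controls and 0.662 to 1.72 for tumors 7 to 9. Tumors 1 to 6 had 0 to 0.136. T cell markers showed the same division: 9 of 9 were seen in every library, and their sum was 1020 to 1340 CPM for tumors 1 to 6, only 40.2 to 94.0 CPM for tumors 7 to 9 and 27.4 to 63.6 CPM for the controls. CPM stands for counts-per-million after scaling by trimmed mean of M-values (TMM) factors. The TMM factors themselves spanned 2.51 to 3.15 for controls, 1.01 to 2.57 for tumors 7 to 9 and 0.283 to 0.853 for tumors 1 to 6, so every order of CPM between these sets rests on them. Group and composition cannot be told apart in tumors 1 to 6 against the controls. In such bulk libraries fewer cells of a type and less RNA per cell cannot be told apart either.

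Il7r itself, which sets the scale for what follows, was at 72.8, 308, 511, 77.9, 97.3 and 33.2 CPM in tumors 1 to 6. Tumors 7 to 9 had 5.02 to 5.62 CPM. The controls had a mean of 2.91 ± 0.355 CPM (SD, n = 3). Tumors 2 and 3 were thus the highest for the receptor and tumor 6 the lowest of the 6.

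Gfi1, Pim1 and Pim2 stood highest over background among the members where Il7r was high. To compare genes of different length, counts were divided by the length of the longest listed transcript and ranked among the receptor genes of the same library. For Socs2 that length was 4242 bases, of a form with 0 to 2 counts in tumors 1 to 6, and its longest coding form has 2222. For Cish it was 4697 bases, of a noncoding form. Shorter lengths would raise the place of both genes, and the effect was not tested. In CPM, which count noncoding forms too, Socs2 lay above Pim2 in tumors 1 and 2 (5.24 and 5.47 against 4.17 and 3.91). Gfi1 lay above 96.4% to 99.9% of the receptor genes in tumors 1 to 6, Pim1 above 92.8% to 99.3% and Pim2 above 89.7% to 98.9%. More than 95% of the receptor genes lay below Gfi1 in 6 of 6 of these tumors, below Pim1 in 5 and below Pim2 in 4. None of the other 7 members passed that level in any of the 12 libraries. The 3 of 10 members that passed it in at least 1 library compare with 38.6% of the 40484 genes tested for tumors against controls, and the 1 that passed it in each of tumors 1 to 6 with 15.2%. The members' shares were thus no higher than those of genes at large. In the controls no member passed it, and Gfi1 lay above only 16.4% to 25.3% of the receptor genes there.

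**Figure D1:**
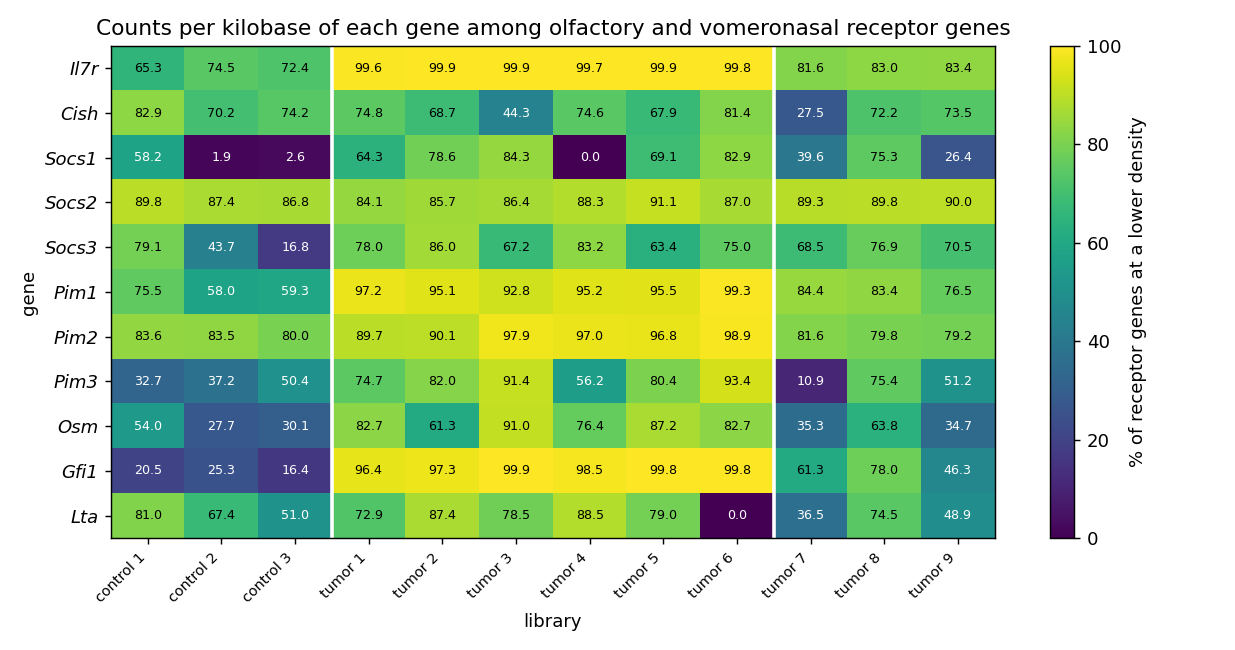
Each cell gives the percentage of olfactory and vomeronasal receptor genes whose counts per kilobase lay below those of the named gene (rows) in a library (columns), with white lines between controls, tumors 1 to 6 and tumors 7 to 9. Gfi1, Pim1 and Pim2 stand between 89.7% and 99.9% in tumors 1 to 6, whereas Cish stands between 44.3% and 81.4% there; in tumors 5 and 6 the median receptor gene had no counts.

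The order of the members per kilobase changed between tumors. In tumor 3, with the highest Il7r, Il7r had 1294 counts per kilobase, Gfi1 had 188, Pim2 had 42.1 and Pim1 had 14.5. Cish was last there with 0.530. In tumor 1 Pim1 led the members with 62.8 counts per kilobase, followed by Gfi1 with 48.6 and Pim2 with 19.3. Gfi1 led in the 5 tumors 2 to 6.

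In the GRCm38 annotation of GENCODE M21, Cish spans chr9:107296026-107302784 on the plus strand. It encodes an SH2 protein that docks on phosphorylated cytokine receptors and competes with STAT5. Cish held 33, 21, 2, 17, 7 and 20 counts in tumors 1 to 6, which is 3.53, 2.73, 0.246, 2.31, 0.278 and 1.27 CPM. Tumors 7 to 9 held 2.19, 4.14 and 4.89 CPM, and controls 1 to 3 held 7.51, 4.18 and 4.73. All of tumors 1 to 6 thus lay below all of the controls, as did 26.6% of the 40484 genes tested, and tumors 7 to 9 overlapped them. In counts per kilobase over background the ranges overlapped. Cish was at 1.38 to 2.63 times the receptor gene median in the controls, 0.595 to 3.03 times in tumors 1 to 4 and 0.708 to 1.69 times in tumors 7 to 9. The tumor with the most Il7r had the fewest Cish counts. In every library but tumor 6, at least 55.1% of the Cish counts were assigned to a transcript of 4697 bases annotated as a processed transcript that codes for no protein. That share was 60.6% to 69.1% in the controls and 45.8% in tumor 6.

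The 3 SOCS genes encode relatives of CISH. SOCS1 and SOCS3 block JAK kinases directly, and SOCS2 is best known as a brake on growth hormone signals. Socs1 lies at chr16:10782240-10785536, Socs2 at chr10:95385362-95417180 and Socs3 at chr11:117966079-117970047, all on the minus strand. Socs2 was the most abundant of these in counts, with 5.24, 5.47, 3.70, 5.31, 3.02 and 1.97 CPM in tumors 1 to 6, 13.4, 13.9 and 14.3 CPM in tumors 7 to 9 and 12.9, 8.86 and 8.48 CPM in controls 1 to 3. Tumors 1 to 6 lay below the controls, as did 26.6% of the genes tested, and tumors 7 to 9 lay above them, as did 7.22%. Density over background differed less: Socs2 was at 3.02 to 5.01 times the receptor median in the controls, 3.47 to 7.93 times in tumors 1 to 4 and 4.84 to 6.27 times in tumors 7 to 9. Tumors 5 and 6 have a receptor median of 0 and hence no such ratio. In tumors 1 to 6 a noncoding form annotated as a retained intron held 20, 19, 8, 18, 26 and 11 Socs2 counts. A noncoding form of 893 bases held 11, 4, 10, 4, 5 and 9 more, of totals of 49, 42, 30, 39, 76 and 31. Controls 1 to 3 had 98, 70 and 56 counts on the first form, of 390, 244 and 210. The CPM of Socs2 thus include noncoding forms.

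Socs1 was close to the detection limit. It had 0 to 8 counts in each of tumors 1 to 6. Tumors 7 to 9 had 12 to 30 counts and the controls 4 to 25. Its 0 counts in tumor 4 allow up to 3 counts, or 0.408 CPM, which is within the 0.145 to 0.827 CPM of the controls. Socs3 was at 2.25, 3.39, 0.616, 2.04, 0.0398 and 0.382 CPM in tumors 1 to 6, on 1 to 26 counts. Tumors 7 to 9 held 2.42 to 2.83 CPM and the controls 1.13 to 3.11 CPM, so the groups overlapped. The highest Socs3 value belonged to tumor 2, where 8 neutrophil markers summed to 318 CPM, against 2.10 to 29.3 CPM in the 5 other tumors of tumors 1 to 6 and 10.2 to 13.3 CPM in the controls. Of these markers 4 had counts in each of tumors 1 to 6. Whether these cells gave the Socs3 counts was not tested.

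Of the 3 PIM kinases, which phosphorylate regulators of translation and cell death and are active as soon as they are made, Pim1 and Pim2 were measurable in tumors 1 to 6 and Pim3 hardly so. Pim1 lies at chr17:29490753-29496112, Pim2 at chrX:7878262-7883432 and Pim3 at chr15:88862186-88865726, all on the plus strand. Pim1 was at 17.8, 9.64, 4.68, 7.76, 3.98 and 13.7 CPM in tumors 1 to 6 and at 5.02, 4.65 and 3.05 CPM in tumors 7 to 9. The controls held 2.78, 1.89 and 1.98 CPM. All 9 tumors lay above all 3 controls, as did 1.63% of the genes tested. The highest Pim1 levels were in tumors 1 and 6, which are among the lower tumors for Il7r, and the lowest of tumors 1 to 6 in tumors 3 and 5.

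Pim2 was at 4.17, 3.91, 10.6, 8.85, 4.69 and 8.14 CPM in tumors 1 to 6, at 3.17, 2.75 and 2.68 CPM in tumors 7 to 9 and at 3.51, 3.05 and 2.58 CPM in the controls. Tumors 1 to 6 lay above all controls, as did 20.3% of the genes tested, and tumors 7 to 9 overlapped the controls. Pim1 and Pim2 did not follow the same tumors: tumor 3 was the highest for Pim2 and next to lowest of the 6 for Pim1. Pim3 had 0.545 to 3.57 CPM over tumors 1 to 6, on 4 to 37 counts. Tumors 7 to 9 had 0.692 to 2.53 CPM and the controls 1.19 to 1.62 CPM, so these overlapped too.

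Gfi1, a zinc finger repressor needed in early T cell development and a recurrent target of activating insertions in mouse lymphoma, lies at chr5:107716657-107726036 on the minus strand and had the largest range of the members in CPM. It was at 14.9, 18.5, 66.4, 21.9, 42.7 and 28.0 CPM in tumors 1 to 6, at 2.31, 3.38 and 1.81 CPM in tumors 7 to 9 and at 1.19, 1.42 and 1.25 CPM in the controls. All 9 tumors lay above all controls, as did 1.63% of the genes tested, and tumors 1 to 6 lay above tumors 7 to 9 without overlap, as did 20.1%. Tumors 3 and 5 were the highest. The separation from the controls held in CPM but not in the deposited TPM (transcripts-per-million). There tumors 1, 2, 4 and 8 had 1.23, 1.15, 1.07 and 1.09, within the 0.797 to 1.31 of the controls. Tumor 7 lay below every control at 0.464.

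The Gfi1 counts were also assigned to different annotated transcripts. Of 4 annotated forms, 2 share a start that lies 1462 bases upstream of that of another form, and these are called the upstream and the downstream start here. A short form that begins still further upstream held 10 counts in tumor 3 and 6 in tumor 6, and none in the other 4 of tumors 1 to 6. The 2 upstream forms together took 73.8%, 82.1%, 68.5%, 36.6%, 100% and 58.4% of the Gfi1 counts in tumors 1 to 6. Tumor 5 had 1074 counts on them and 0 on the form with the downstream start, which allows up to 3 counts. Tumor 4 had 59 against 102, the only one of the 6 in which the downstream form led. The transcripts share most of their bases, and kallisto splits shared reads by estimate without an error in the files, so these shares carry an error that the files do not give. The stretches before the 2 starts are shown because the transcripts place Gfi1 counts behind each of them. The first of them lies inside the span of the short form, in its first intron. Both are printed on the minus strand, 5′ to 3′, from RefSeq promoter windows of GRCm38.p6, without the bases annotated as untranslated regions. The first covers chr5:107725806-107725954 and the second chr5:107724344-107724593.
Gfi1 before the upstream start: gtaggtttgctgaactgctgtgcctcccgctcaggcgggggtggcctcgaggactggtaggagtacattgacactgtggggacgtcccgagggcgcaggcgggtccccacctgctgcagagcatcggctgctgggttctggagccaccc
Gfi1 before the downstream start: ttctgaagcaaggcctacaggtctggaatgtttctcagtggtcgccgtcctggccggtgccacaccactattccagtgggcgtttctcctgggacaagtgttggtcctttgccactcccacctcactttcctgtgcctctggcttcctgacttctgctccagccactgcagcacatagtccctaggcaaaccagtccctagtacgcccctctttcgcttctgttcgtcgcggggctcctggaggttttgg
The upstream stretch holds 66.4% G and C and the downstream one 57.6%. Neither window holds TTCNNNGAA, nor TAAATCAC, part of the site that GFI1 itself binds, on either strand.

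**Figure D2:**
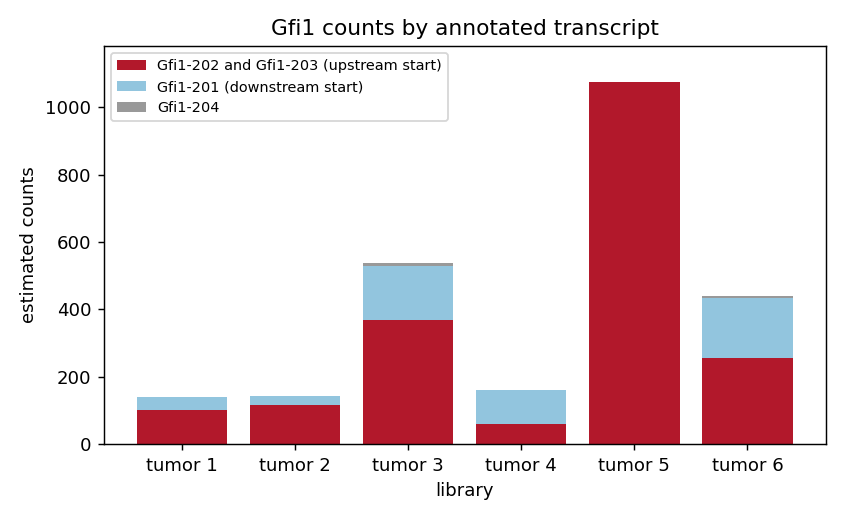
Bars give the estimated counts of Gfi1 in tumors 1 to 6 (horizontal axis), divided by annotated transcript. Tumor 5 has 1074 counts, all on the 2 forms with the upstream start, and in tumor 4 the form with the downstream start holds 102 of 161.

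Osm and Lta encode secreted cytokines, oncostatin M and lymphotoxin alpha. Osm lies at chr11:4236420-4241026 on the plus strand and Lta at chr17:35203165-35205351 on the minus strand. Osm was at 2.57, 1.04, 3.20, 1.23, 1.07 and 0.700 CPM in tumors 1 to 6, on 8 to 27 counts, at 1.21 to 1.52 CPM in tumors 7 to 9 and at 1.16 to 1.46 CPM in the controls. Lta was at 0.963, 2.08, 0.616, 1.77, 0.278 and 0 CPM in tumors 1 to 6, on 0 to 16 counts, at 0.750 to 1.35 CPM in tumors 7 to 9 and at 0.929 to 1.92 CPM in the controls. Both genes overlapped the controls in either set of tumors. The 0 of Lta in tumor 6 allows up to 3 counts, or 0.191 CPM, which is below every control.

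**Figure D3:**
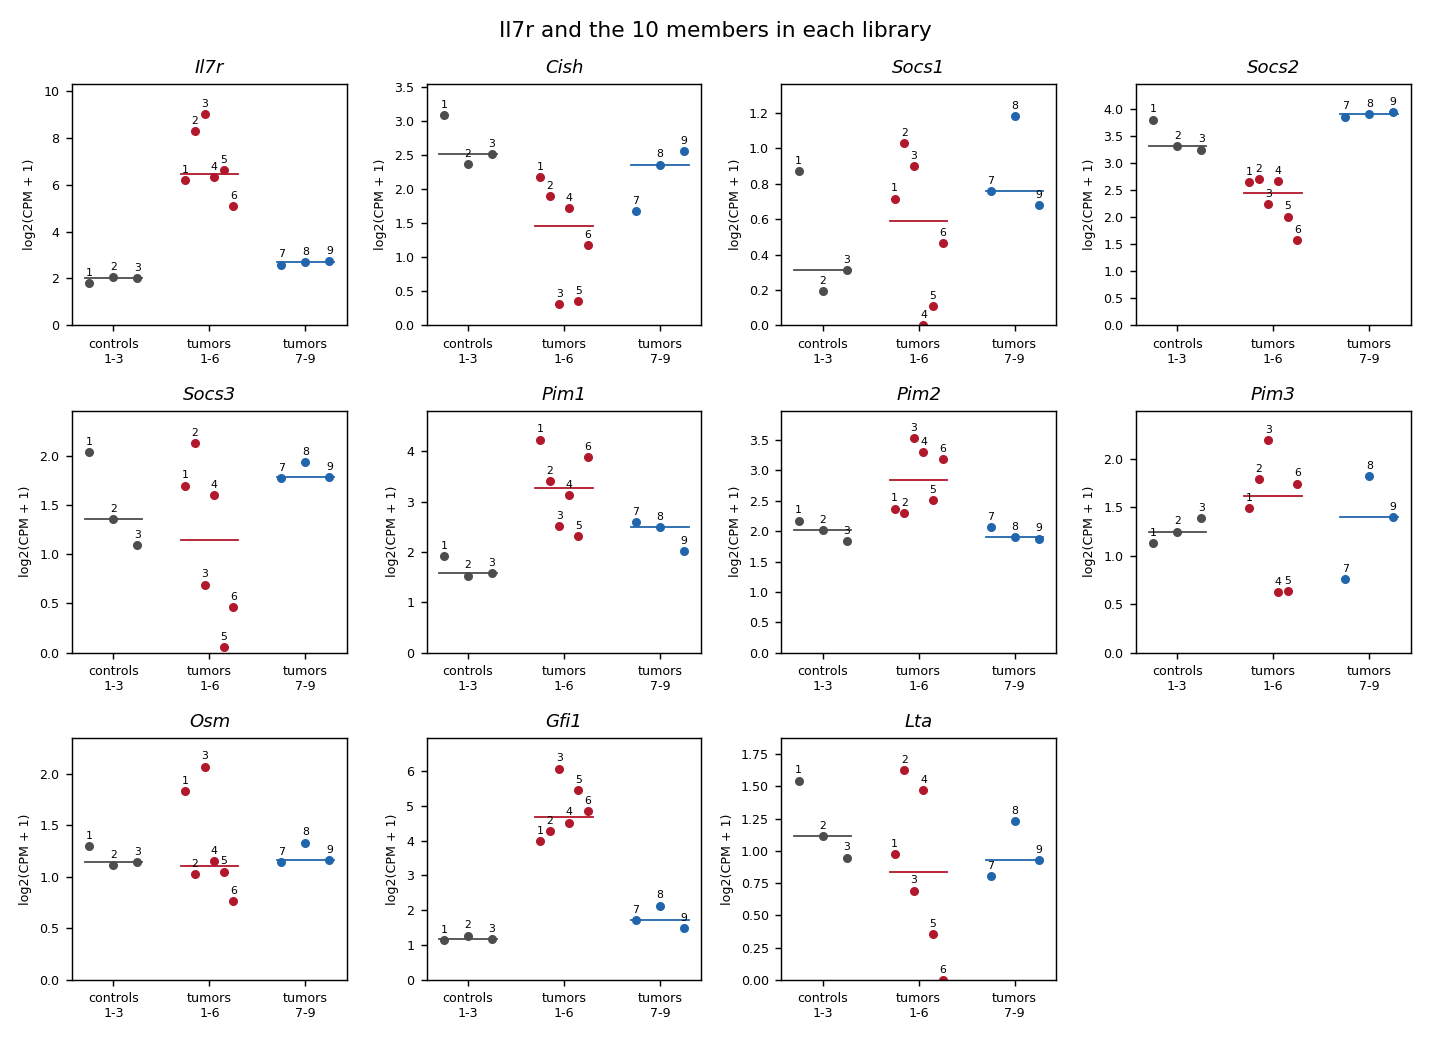
Points give log2(CPM + 1) of Il7r and the 10 members (one panel each, vertical axes differ) in controls 1 to 3, tumors 1 to 6 and tumors 7 to 9, with library numbers above the points and lines at the median. Gfi1 reaches 66.4 CPM in tumor 3 and stays between 1.19 and 1.42 CPM in the controls, while Cish and Socs2 are lower in tumors 1 to 6 than in the controls.

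Sites for STAT5 near the start of each gene were compared, since the members are grouped by this factor. RefSeq windows from 250 bases before to 50 bases after a start were found for 8 of the 10 members, with none for Socs2 and Osm. TTCNNNGAA, which is its own reverse complement and so was read on both strands at once, stood in 8.3% of all 32851 windows. Among the members it stood in those of Cish, Socs3 and Lta, and Il7r also has it. It stood in none of the windows of Gfi1, Pim1, Pim2, Pim3 and Socs1. The 3 members that stood highest over background in tumors 1 to 6 were thus among those without a match, which says only that these letters are not in these windows. The matches are printed with up to 30 bases each, the motif in capitals and the sequence along the strand of the gene, to show that those of Cish lie side by side at the annotated start and those of Lta lie apart. In GRCm38.p6 they are at chr9:107296654-107296683 (plus strand, inside an annotated untranslated region of Cish) for Cish and, on the minus strand, at chr11:117969501-117969530 for Socs3, chr17:35205484-35205513 and chr17:35205348-35205377 for Lta, and chr15:9529999-9530028 for Il7r.
Cish: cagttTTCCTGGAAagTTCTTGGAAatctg
Socs3: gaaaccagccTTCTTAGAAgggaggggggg
Lta, first: accatcactcTTCAGGGAAccaggcttcca
Lta, second: ccgactccctTTCCCAGAAcgcagtagtct
Il7r: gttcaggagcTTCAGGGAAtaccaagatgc

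The relation of each member to Il7r was then measured over tumors 1 to 6, the libraries in which Il7r lay above at least 99.6% of the receptor genes. No member rose or fell with Il7r past the threshold. In edgeR's quasi-likelihood test of the slope on log2(Il7r CPM + 1), 0% of 14172 genes were called in either direction at a Benjamini-Hochberg adjusted p below 0.05, and 298 genes had an unadjusted p under 0.05. With DESeq2, 7 genes rose and 7 fell (0.0494% each), none of them a member. The members that passed the filter on low counts were Gfi1, Pim1, Pim2 and Socs2. Gfi1 changed by 0.27 on the log2 scale per doubling of Il7r, with a standard error of 0.19, and without tumor 3 the slope was -0.12. Pim1 had a slope of -0.31 with a standard error of 0.22, and it stayed below 0 whichever tumor was left out (-0.44 to -0.20). Socs2 had 0.15 with a standard error of 0.22, and Pim2 0.05 with 0.19. The adjusted p was 1.0 for each of these 4.

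The other 6 members could be fitted only without the filter, where 0.00642% of 46745 genes were called rising and 0.00856% falling, and no member. Their slopes were -0.22 for Cish (standard error 0.49), 0.45 for Socs1 (0.63), 0.30 for Socs3 (0.56), 0.25 for Pim3 (0.33), 0.32 for Osm (0.40) and 0.51 for Lta (0.71), each with an adjusted p of 1.0 by edgeR.

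Correlation coefficients were also taken, and no member had a permutation p under 0.05 before adjustment. Pearson's r of log2(CPM + 1) with Il7r over the 6 tumors was 0.62 for Socs1, 0.54 for Osm, 0.47 for Pim3, 0.43 for Gfi1 and Lta, 0.41 for Socs2, 0.22 for Socs3, 0.06 for Pim2, -0.28 for Cish and -0.52 for Pim1. The two-sided exact permutation p over 720 pairings ran from 0.192 for Socs1 to 0.903 for Pim2. Spearman's rho ran from -0.66 for Pim1 (exact p = 0.175) to 0.49 for Socs1 and Pim3 (exact p = 0.356). Of the 14172 genes, 2.4% had a Pearson p under 0.05. Every adjusted p was 1.0, over 14172 genes for the 4 members that passed the filter and over 46745 for the others. With 720 pairings the smallest p possible was 0.00139. Adjustment over so many genes could therefore hardly call any, and the adjusted p decides nothing. Without tumors 2 and 3, the 2 farthest from the median Il7r level, r turned to -0.43 for Socs1, -0.81 for Pim3 and -0.51 for Pim2, and fell to 0.10 for Gfi1, so those values rest on these 2 tumors. It was -0.60 for Pim1, -0.12 for Cish, 0.64 for Socs2, 0.14 for Socs3, 0.46 for Osm and 0.54 for Lta. Tumors 7 to 9 are too few for a value of their own.

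**Figure D4:**
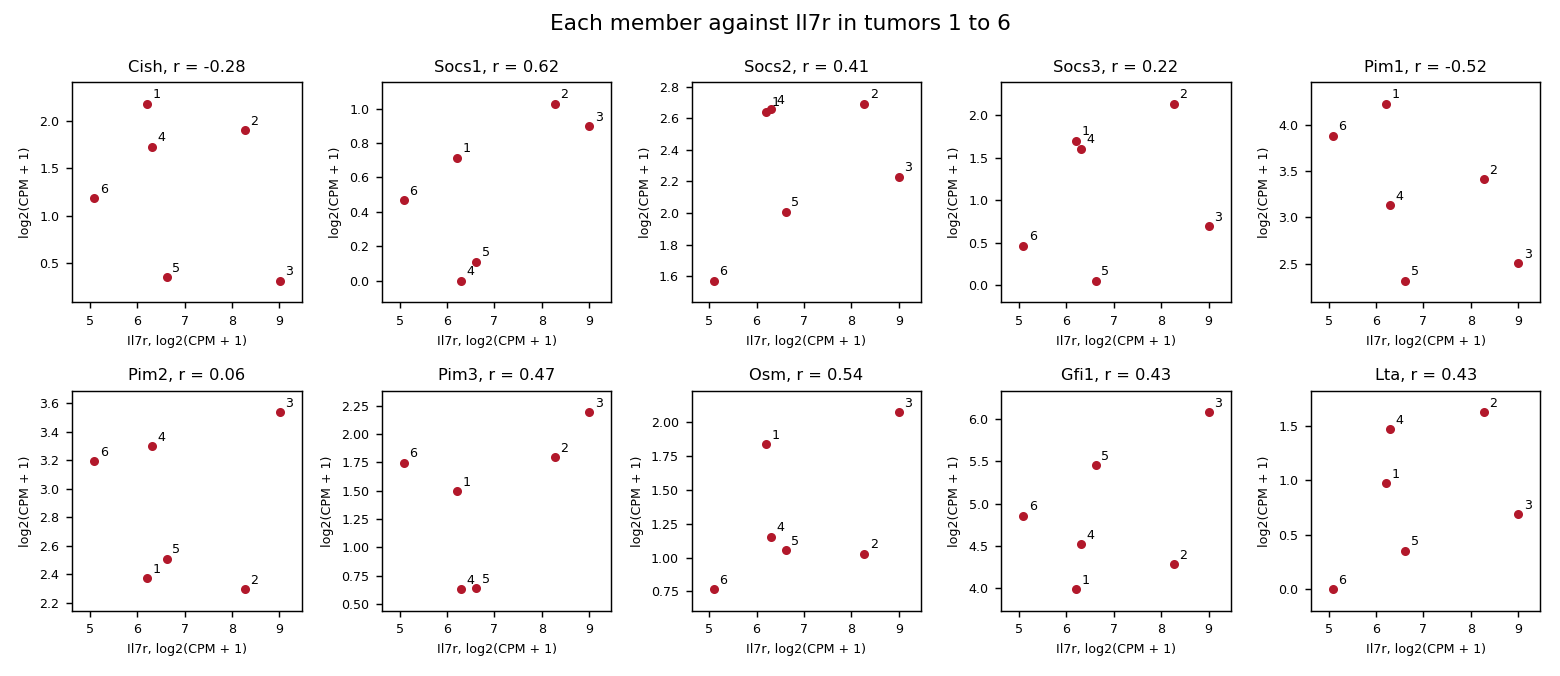
Each panel sets log2(CPM + 1) of 1 member (vertical axis) against that of Il7r (horizontal axis) in tumors 1 to 6, with the tumor number beside each point and Pearson's r above. The values of r run from -0.52 for Pim1 to 0.62 for Socs1, and tumors 2 and 3 stand to the right of the other 4 in every panel.

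Library composition moved with some members within tumors 1 to 6. The r with the mitochondrial share was 0.99 for Socs2, 0.92 for Lta, 0.90 for Socs3 and 0.74 for Cish, -0.64 for Gfi1, -0.37 for Pim2 and -0.11 to 0.34 for Socs1, Pim1, Pim3 and Osm. With the receptor gene density it was 0.91 for Socs2, 0.93 for Socs3, 0.85 for Lta, 0.75 for Cish and -0.61 for Gfi1. Il7r had 0.28 with the first and 0.38 with the second. These are descriptions over 6 libraries that share their scaling, and the part of composition in the members' values was not tested.

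The members also did not move as one group. Of the 45 pairs, 28 had r above 0 over tumors 1 to 6, and the median was 0.17. Of the 6 pairs above 0.8, Socs2 and Lta had 0.94, Socs1 and Pim3 0.89, Socs3 and Lta 0.89, Cish and Socs3 0.87, Socs2 and Socs3 0.86, and Cish and Pim1 0.82. Gfi1 had -0.97 to Cish, -0.81 to Pim1 and -0.75 to Socs3, but -0.04 to Socs1 and 0.19 to Pim3. Cish had 2 and 7 counts in the 2 tumors where Gfi1 was highest. Several of these pairs rest on few counts in tumors 1 to 6. Socs1 had 0 to 8, Lta 0 to 16, Socs3 1 to 26, Cish 2 to 33 and Pim3 4 to 37. The part of counting error in these r values was not tested. Pim1 and Pim2 share a family and a substrate range, but each followed other genes more closely. Among 8365 genes with a mean of at least 10 CPM, Ppp1ca was among the 2 most like Pim1 (r = 0.976), Pim2 was most like Mta1 (0.998) and Trim35 (0.997), and Gfi1 most like Spn (0.995) and Ddx17 (0.994). With 6 libraries such values are common: 41 of these genes had r above 0.9 with Pim1, 367 with Pim2 and 408 with Gfi1. In likeness to Pim1, Pim2 and Gfi1, Il7r had ranks 5140, 5408 and 4388.

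**Figure D5:**
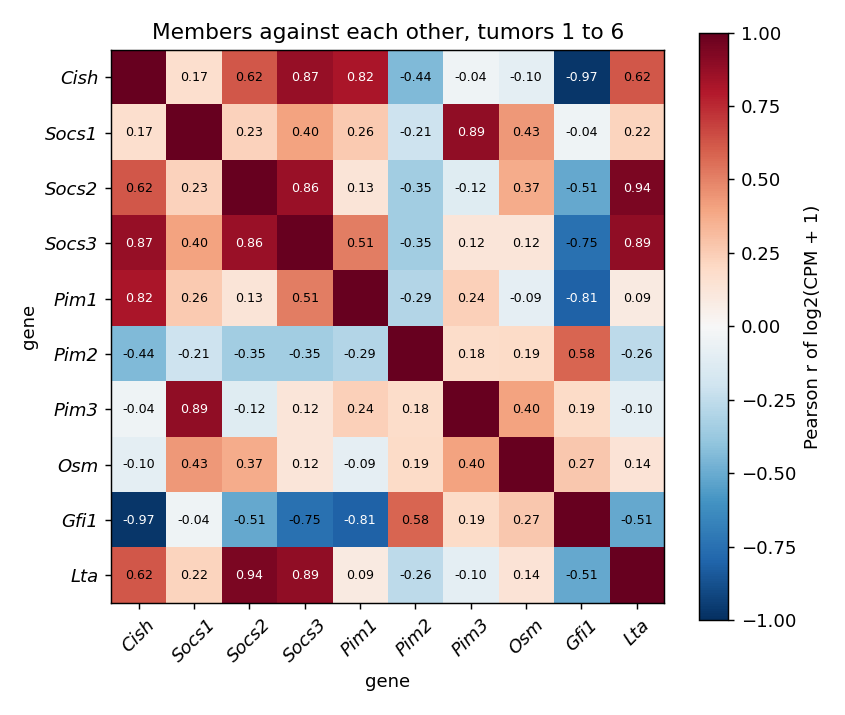
Cells give Pearson's r of log2(CPM + 1) between pairs of members over tumors 1 to 6, red for above 0 and blue for below. Gfi1 is blue against Cish (-0.97), Pim1 (-0.81) and Socs3 (-0.75), while Socs2 and Lta reach 0.94.

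Across all 9 tumors against the 3 controls, no member passed the threshold. In edgeR's quasi-likelihood test 0% of 40484 genes were called higher and 0.00494% lower, with 7297 at an unadjusted p below 0.05, and 10 of 10 members were tested. Gfi1 had a log2 fold change of 4.10 with a standard error of 1.12 and Pim1 one of 1.81 with 0.62, both with an adjusted p of 0.128. Pim2 had 0.83 (adjusted p = 0.529), Socs1 0.60 (0.726), Pim3 0.36 (0.756), Osm 0.25 (0.809), Socs3 -0.09 (0.949), Socs2 -0.45 (0.684), Lta -0.49 (0.744) and Cish -1.18 (0.428). The median over the members was 0.31 and that of all tested genes -0.45, with 8 of 10 members above it. Scaling by library totals moved the median of all genes to -1.82, and 8 of 10 members still lay above it. On that scale Gfi1 was at 1.73 and Pim1 at -0.20, so the sign of Pim1 depended on the scaling.

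Without tumors 7 to 9, edgeR called Gfi1 (4.33, adjusted p = 6.89e-05) and Pim1 (1.82, adjusted p = 0.0144) higher and Socs2 (-1.62, adjusted p = 0.00295) and Cish (-2.01, adjusted p = 0.0319) lower, 4 of 9 members tested. In that fit 19.6% of 38522 genes were called higher and 20.3% lower, so the share of members called was near that of genes at large. The median of all genes was -1.29 there. Relative to that median Socs2 was at -0.33 and Cish at -0.72 on the log2 scale. DESeq2 on all 12 libraries called Gfi1 and Pim1 higher among 10.1% of genes. Its adjusted p was 0.000889 for Gfi1 and, at the threshold, 0.05 after rounding for Pim1. With limma on log2(TPM + 1), 7 members were lower, among 79.3% of genes, and Gfi1 had 0.48 (adjusted p = 0.343). With the replicate number as a block, edgeR called Gfi1 and Pim1 higher and Cish and Socs2 lower, among 20.7% and 5.71% of genes. In tumors 7 to 9 against the controls no member was called, among 0.0247% of genes in each direction. Gfi1 had 0.94 (standard error 0.28, adjusted p = 0.383) and Pim1 0.92 (0.26, adjusted p = 0.340) there. In CPM 3 of 3 tumors lay above all controls for both, as for Il7r at 0.87. These tumors also had stroma and endothelium markers at 86.6 to 152 CPM against 34.3 to 85.0 CPM in the controls. In that sum Pecam1 alone held 60.8 to 129 CPM against 11.7 to 58.6 CPM, and the other markers of the list overlapped the controls or lay below them. The receptor gene background was lower in tumors 7 and 8 than in any control. The part of these in the members' values was not tested. Of all genes tested, 7.22% had tumors 7 to 9 above all controls. No member had tumors 7 to 9 below all controls, as 7.26% of genes did, or all 9 tumors below them, as 3.1% did.

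Other genes of the pathway, in lists chosen with earlier results known, had higher medians than the members. Of 10 ligand, receptor, JAK and STAT genes that carry the signal, 0 passed the threshold over all 9 tumors and the median log2 fold change was 2.59. Jak1, the kinase on Il7r, was at 99.4 to 210 CPM in tumors 1 to 6 against 5.88 to 6.92 in the controls, and Stat5b at 54.8 to 133 against 3.23 to 6.32. Of 9 other brakes, phosphatases and ubiquitin ligases among them, 0 passed and the median was 2.87. Ptprc, which encodes the phosphatase CD45, was at 479 to 987 CPM against 10.9 to 34.2. For 8 other SOCS genes and parts of the SOCS ubiquitin ligase the median was 1.90, again with 0 called, and Socs4 was at 43.1 to 68.1 CPM against 5.57 to 8.70 in the controls. Without tumors 7 to 9, edgeR called 9 of the 10 signal genes, 8 of the 9 brakes and 6 of the 8 SOCS and ligase genes higher, against 2 of 9 members, where 19.6% of all genes were.

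Other genes counted among the targets of STAT5 also lay well apart from each other in level. Of 14 such genes 0 passed over all 9 tumors, with a median of 0.93, and 5 were called higher without tumors 7 to 9, where 19.6% of all genes were. Myc, a driver of growth, had 48.1 to 160 CPM over tumors 1 to 6, with 2.48 to 3.63 CPM for tumors 7 to 9 and 1.25 to 1.63 CPM for controls. Mcl1, a survival protein of the BCL2 family, was at 35.4 to 83.4, 2.44 to 4.06 and 2.71 to 3.31 CPM. Their slopes on Il7r over tumors 1 to 6 were 0.21 and -0.11 with standard errors of 0.16 and 0.17. Of the 10 PIM substrates, 0 passed over all 9 tumors, with a median of 1.68, and 6 were called higher without tumors 7 to 9. Eif4b, a translation factor that PIM kinases phosphorylate, was at 185 to 422 CPM against 5.46 to 9.74 in the controls, and Cdc25a, a cell cycle phosphatase, at 31.8 to 87.4 against 4.90 to 5.98.

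The last lists hold partners of Gfi1, Lta and Osm. Of 7 genes around Gfi1 0 passed, with a median of 2.41. Without tumors 7 to 9, 5 were called higher, in a fit that called 19.6% of all genes higher. Its corepressors Hdac2 and Hdac1 were at 78.8 to 150 and 43.2 to 104 CPM in tumors 1 to 6 against 3.80 to 4.50 and 7.35 to 8.79 in the controls. The 6 genes of the lymphotoxin locus and its receptors had a median of 0.36 with 0 called, and 1 was called higher without tumors 7 to 9. The receptor gene Tnfrsf14 was at 3.56 to 17.7 CPM against 6.38 to 10.1 in the controls, and Tnfrsf1b had a log2 fold change of 0.45 over all 9 tumors (adjusted p = 0.646). The 5 genes of the oncostatin receptor family had a median of -0.32 with 0 called, and 1 was called higher and 2 lower without tumors 7 to 9, where 20.3% of all genes were lower. Il6st, the shared signal chain, was at 65.0 to 279 CPM against 11.5 to 15.2, and Il6ra had a log2 fold change of -0.23 (adjusted p = 0.794). None of these 8 lists held a gene whose slope on Il7r passed the threshold over tumors 1 to 6, and their median slopes ran from -0.05 to 0.32 beside 0.06 for all genes.

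Markers of other cells differed among tumors 1 to 6 as well, and several members are known in those cells. Macrophage markers summed to 22.7 to 172 CPM there, NK cell markers to 19.2 to 409 and markers of stroma and endothelium to 180 to 1160, against 14.1 to 17.2, 8.04 to 10.6 and 34.3 to 85.0 CPM in the controls. All 8 macrophage and 5 stromal markers had counts in each of tumors 1 to 6, and 2 of 4 NK cell markers did. In the macrophage sum Lyz2 alone held 7.13 to 112 CPM against 0.835 to 1.03 CPM in the controls, and the others overlapped them. Gzma alone held 18.6 to 404 CPM of the NK cell sum, against 0.646 to 3.57 CPM, and the others overlapped the controls. Pecam1 alone held 175 to 1150 CPM of the stromal sum, against 11.7 to 58.6 CPM. Cdh5 lay below every control (0.0636 to 2.08 against 2.12 to 2.91 CPM), and Col1a1, Col3a1 and Pdgfra overlapped the controls. B cell markers summed to 1.39 to 16.3 CPM in tumors 1 to 6, below the 20.6 to 22.3 CPM of the controls, and epithelial markers to 3.05 to 18.2 CPM, again below every control (at most 25.5 CPM). Tumors 7 to 9, with a receptor gene background closer to that of the controls, had 17.5 to 22.0 and 24.6 to 25.6 CPM. How much of these sums is background was not tested. Erythroid markers (2.46 to 9.67 CPM, with 3.27 in the lowest control) and those of mast cells and basophils (0.246 to 8.67 against 4.14 to 4.61 CPM) overlapped the controls. Their part in the members' levels was not tested.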

How the data were processed

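RNA of 12 mouse thymus libraries was sequenced as paired reads of 75 bases after trizol extraction, per the labels' protocols. The tools kallisto and FastQC and the build mm10 are named in the submitters' processing notes, with versions not given in the sources used here. The authors deposited, per transcript and library, an estimated count and a TPM (transcripts-per-million), per the file headers. Estimated counts were summed over 128622 transcripts by symbol and rounded. The authors' deposited TPM served only as an alternative.

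Groups came from the labels. Tumors were compared with controls, and members with Il7r over tumors 1 to 6, with edgeR 4.0.16 (TMM factors, filterByExpr, quasi-likelihood test, R 4.3.3) and Benjamini-Hochberg adjustment over all genes tested, with a threshold of 0.05. Correlations used log2(CPM + 1) and exact two-sided permutation over 720 pairings (numpy 2.4.6, with ranks by scipy 1.17.1). Levels between genes were compared as counts per kilobase. Alternatives were other scalings, filters, covariates and libraries, a replicate block, DESeq2 1.42.0 and limma 3.58.1. The edgeR tests were run on simulated counts with the same spread for every gene. They recovered 100% of 200 changed genes, set at a log2 size of 3 between groups and of 1 per doubling of Il7r. The false share among calls was 3.4% and 6.5%. This cannot show how the tests behave at the spread of the real libraries. A count of 0 was read as allowing up to 3 counts, and floors cover counting error only. Genes named besides Il7r and the members were, per list, those past the threshold (at most 4) or else the 2 highest in mean CPM in tumors 1 to 6, and the 2 most alike to each member of at least 5 CPM, among genes of at least 10 CPM. A gene that this rule names is not reported here. The members and lists were chosen with earlier results of these data known.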

Additional observations from a re-analysis of the deposited data

How the results depend on the processing

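Over all 9 tumors, leaving out 1 library at a time gave 0 genes higher and 0 to 3 genes lower, and no member was called. Calls depended more on the method: DESeq2 gave 4081 higher and 52 lower with 2 members higher, limma on log2(TPM + 1) gave 125 and 32091 with 7 members lower, and limma on log2(TPM + 0.1) gave 114 and 30997 with 7 members lower. Without tumors 7 to 9 there were 7562 higher and 7820 lower (2 members each way), with tumors 7 to 9 alone 9 and 9, and with the stricter filter or the receptor density covariate 0 lower. For the relation to Il7r, 3 genes rose and 4 fell with no filter, 7 and 7 with DESeq2, 1 fell under library totals and 3 under log2(TPM + 0.1), none of them a member. The cause of these shifts was not tested.

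With the replicate block, 8370 genes were higher and 2310 lower, with 2 members each way (Gfi1 4.34 and Pim1 2.11 higher, Cish -1.59 and Socs2 -1.06 lower). Only numbers 1 to 3 occur in both groups, so the block rests on tumors 1 to 3. Same-numbered libraries had correlated deviations of 0.106, 0.084 and -0.15, so the numbers were not taken to pair them.

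The log2 fold change over all tumors turned its sign with library totals to -0.78 for Socs1, -0.20 for Pim1, -1.18 for Pim2, -1.31 for Pim3, -1.54 for Osm. With totals without mitochondrial genes it was -0.38 for Socs1, -0.51 for Pim2, -0.79 for Pim3, -0.95 for Osm. With log2(TPM + 1) it was -0.40 for Socs1, -0.48 for Pim1, -1.42 for Pim2, -0.78 for Pim3, -0.83 for Osm. With log2(TPM + 0.1) it was -1.27 for Socs1, -0.91 for Pim1, -2.08 for Pim2, -1.94 for Pim3, -1.96 for Osm. For tumors 7 to 9 alone it was 0.46 for Socs2, 0.39 for Socs3, -0.10 for Pim2. With the receptor density covariate it was 0.67 for Socs2, 1.23 for Socs3, -0.17 for Pim2, 0.31 for Lta. With the stricter filter it was -0.25 for Pim2. With RLE factors it was -0.063 for Pim3, -0.14 for Osm. With DESeq2 it was -0.060 for Pim3, -0.14 for Osm. Without tumors 7 to 9 it was -0.003 for Osm. Leaving out 1 library at a time gave -0.54 to 0.19 for Socs3, -0.003 to 0.48 for Pim3, -0.024 to 0.35 for Osm.

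The slope on Il7r turned with library totals to -0.009 for Socs2, -0.048 for Pim2. With log2(TPM + 1) it was -0.041 for Socs2, -0.13 for Pim2. With log2(TPM + 0.1) it was -0.064 for Socs2, -0.21 for Pim2. With RLE factors it was -0.037 for Pim2. With totals without mitochondrial genes it was -0.15 for Pim2. With TMM among tumors 1 to 6 it was -0.051 for Pim2. With DESeq2 it was -0.037 for Pim2. Without tumors 2 and 3 it was -0.39 for Pim2. Leaving out 1 library at a time gave -0.049 to 0.35 for Socs2, -0.34 to 0.18 for Pim2, -0.12 to 0.41 for Gfi1.

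Pearson r with Il7r turned without tumors 2 and 3 to -0.43 for Socs1, -0.51 for Pim2, -0.81 for Pim3. With library totals it was -0.061 for Socs2, -0.15 for Socs3, -0.017 for Pim2. With log2(TPM + 1) it was -0.21 for Socs2, -0.34 for Pim2. With RLE factors it was -0.15 for Pim2. With totals without mitochondrial genes it was -0.47 for Pim2. With TMM among tumors 1 to 6 it was -0.18 for Pim2. Leaving out 1 library at a time gave -0.56 to 0.23 for Cish, -0.16 to 0.66 for Socs2, -0.094 to 0.57 for Socs3, -0.67 to 0.39 for Pim2, -0.24 to 0.72 for Gfi1.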
